A study of Mus musculus with 2 samples.

Results

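Mural cells are described here as they occur in the library of CD45-/CD31+ cells sorted from normal mammary glands (NECs). A cell was counted as mural when it held at least 200 genes, less than 10% mitochondrial UMIs (unique molecular identifiers, each marking 1 captured RNA molecule), no UMI of Ptprc or Epcam, and at least 1 UMI each of at least 3 of the 9 genes Rgs5, Myh11, Cspg4, Pdgfrb, Notch3, Higd1b, Abcc9, Kcnj8 and Acta2. This rule was met by 432 of 5644 eligible cells, or 7.65% (Clopper-Pearson 95% interval 6.97 to 8.38%), out of 9047 barcodes in the library and 9751 in the series. Of the 432 mural cells, 227 had no UMI of the endothelial genes Cdh5 and Pecam1 (4.02% of eligible cells, 3.52 to 4.57%) and 205 had at least 1 (3.63%, 3.16 to 4.15%). The latter may be doublets with endothelial cells (ECs) and were kept apart throughout. The comparison group was 4003 ECs with a Cdh5 or Pecam1 UMI and none of the 9 genes.

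The series asks how ECs of E0771 mammary tumors (TECs) differ from those of normal glands, and it holds 1 droplet library of each. The normal glands came from C57BL/6 mice of 6 to 8 weeks and were pooled before sorting, with no allele or agent named. Title and design call them normal, whereas the tissue and cell type fields of the same library name E0771 and TECs. Pooled animals and 1 library leave no replicate, and cells cannot stand in for animals. No test was therefore run, and every interval given covers counting error only.

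Mural cells wrap the endothelial tube from outside and share its basement membrane. Smooth muscle cells ring arterioles and venules and set vessel diameter through actomyosin contraction, whereas pericytes lie singly along capillaries and are recruited by PDGF-B that ECs secrete. A sort on CD31, the protein encoded by Pecam1, is meant to leave mural cells out.

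The 9 genes that chose the cells are described first, without a test. Rgs5, a regulator of G protein signaling, was detected in 165 of the 227 mural cells without an endothelial UMI, with 0 to 144 UMIs per cell and a median of 7. Summed over these cells it reached 2747 CPM (UMIs per 1000000 UMIs of the summed cells, Poisson 95% interval 2653 to 2844). Acta2, smooth muscle alpha-actin, was in 189 cells with 0 to 257 UMIs and a median of 30, at 9054 CPM (8881 to 9229). Levels of both thus ran from none to over 100 UMIs within the same set of cells. Myh11, the smooth muscle myosin heavy chain, was in 167 cells with up to 60 UMIs and a median of 5, at 1444 CPM (1376 to 1515). Notch3, the Notch receptor of mural cells, was the gene detected most often, in 203 cells with a median of 3 UMIs (683 CPM). Pdgfrb, the receptor for PDGF-B, was in 181 cells with a median of 2 UMIs and a highest value of 17 (429 CPM).

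The other 4 genes were found in fewer than 50% of the cells. Cspg4, which encodes the NG2 proteoglycan, was in 95 of 227 cells with at most 5 UMIs (140 CPM), and Higd1b, a small hypoxia-inducible domain protein gene, in 108 with at most 23 (216 CPM). Abcc9 and Kcnj8 encode the SUR2 and Kir6.1 subunits of a vascular ATP-sensitive potassium channel, and they neighbor each other on chromosome 6 of GRCm38 (142587862 to 142702315 and 142564837 to 142571614, both on the minus strand). Abcc9 was in 82 cells (198 CPM) and Kcnj8 in 68 (226 CPM), and 57 cells had both, which is 69.5% of the former and 83.8% of the latter. Myh11 and Acta2 were together in 162 cells, 97.0% of those with Myh11, while only 30 of the 167 Myh11 cells had Abcc9.

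Other cells of the library give the level that can be read as background. Among 4982 eligible cells with an endothelial UMI that did not meet the rule (median 2975.5 UMIs), Rgs5 was detected in 10.8%, Acta2 in 5.64% and each of the other 7 genes in 0.261 to 1.57%. Among 1229 Epcam cells, which are deeper (median 9913 UMIs), Rgs5 was in 9.52%, Higd1b in 1.55%, Abcc9 in 2.20% and Kcnj8 in 0.976%, while Notch3 was in 32.3% and Acta2 in 21.4%, and 55 of these cells (4.48%) would meet the rule if Epcam were not asked about. The shares in mural cells were 47.6% for Higd1b, 36.1% for Abcc9 and 30.0% for Kcnj8, and the rule itself sets these apart from cells that do not meet it.

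Most eligible cells had none or 1 of the 9 genes, 4175 and 901 cells, and there were 136 cells with 2 genes and 48 with 3, but 104 with 5 and 109 with 6. The share with an endothelial UMI was 95.9% among cells with none of the genes, 83.8% with 2, 70.8% with 3, 53.4% with 4, 38.5% with 5, 42.2% with 6, 41.5% with 7, 58.3% with 8 and 55.6% with 9, the last 2 of 24 and 9 cells. Cells just outside the limit (2 genes) held a median of 3 UMIs of the 9 genes and those just inside it (3 genes) a median of 8, against 33 for cells with 4 genes and 57 with 5. Both counts are of the genes that set the limit.

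**Figure D1:**
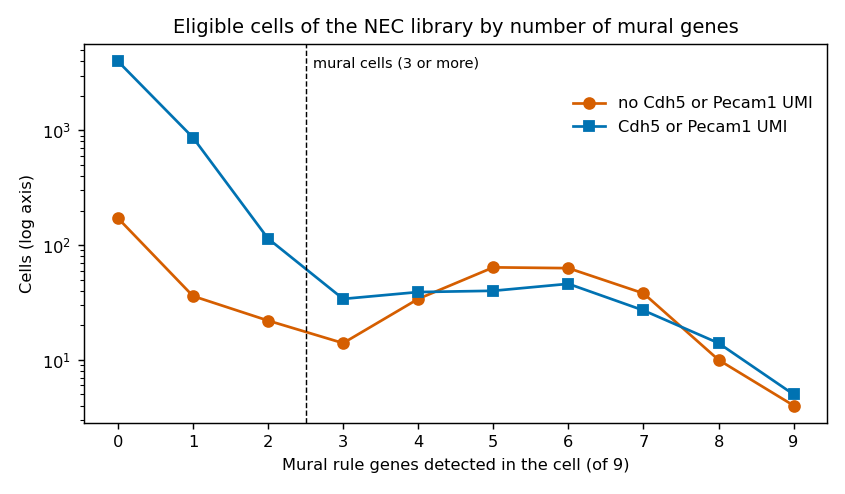
Number of eligible NEC-library cells (log axis) by how many of the 9 mural genes they hold, for cells without and with a Cdh5 or Pecam1 UMI, with the limit of 3 genes dashed. The line with an endothelial UMI drops from 4003 cells at 0 genes to 34 at 3, and both lines show a second rise at 5 and 6 genes.

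Mural cells were deeper than ECs. The median was 4820 UMIs (600 to 18974) without an endothelial UMI and 6212 (1189 to 23584) with one, against 2908 (500 to 29715) in ECs, and the median share of mitochondrial UMIs was 6.92%, 5.68% and 3.60%. The rule favors deep cells, and part of the mural cells lay over the mitochondrial limit: among 1640 barcodes at or over 10% that had no Ptprc or Epcam UMI, 241 met the rule (14.7%, 13.0 to 16.5%), of which 169 had no endothelial UMI. When every cell was thinned to 2000 UMIs, with 28 mural cells without and 7 with an endothelial UMI too shallow to be used, the groups made up 5.03 and 2.67% of eligible cells. With a limit of 5% in place of 10% mitochondrial UMIs the shares were 1.33 and 1.81%.

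The authors removed cells with Myh11 or Cspg4 to take out smooth muscle cells and pericytes. A UMI of either gene was present in 331 of the 432 mural cells (76.6%, 72.3 to 80.5%), Myh11 in 281, Cspg4 in 176 and both in 126. The 101 mural cells with neither made up 1.94% of the 5200 eligible cells that such a filter keeps. They were shallower, with a median of 3705 UMIs against 6026. In them Rgs5 was detected in 86.1% (2772 CPM), Abcc9 and Notch3 in 76.2% each and Pdgfrb in 69.3%, whereas Acta2 was detected in 39.6% and Tagln, another actin-binding protein of smooth muscle, in 41.6%. Since a cell without Myh11 and Cspg4 had to meet the rule through the other 7 genes, the shares of those 7 describe the selection.

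Genes outside the rule showed how far the 227 mural cells without an endothelial UMI differ from the 4003 ECs. A log2 ratio of CPM of at least 2, a 4-fold difference, was reached by 819 of 9346 genes with at least 10 CPM in either group (8.76%), and 860 genes (9.2%) were lower by as much. The median of all these genes was -0.12. Since the cells were chosen by genes of the same contrast, these ratios are a description of the chosen cells and the shares of genes in lists are set beside the background with nothing read from the difference. In a mix of cells, fewer cells with a gene and less RNA of it per cell cannot be told apart in such sums, so the number of cells is given with them.

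Genes of contractile proteins were mostly higher in mural cells. Of 19 such genes with enough UMIs, 16 were at least 4-fold higher in mural cells, none was 4-fold lower and the median log2 ratio was 5.59, and the list as a whole stood at 22843 CPM against 1362. Tagln (transgelin) was in 187 of the 227 cells at 5320 CPM (5188 to 5454), against 77.0 CPM in ECs, a log2 ratio of 6.11 (exact conditional interval 6.01 to 6.21). Tpm2 and Tpm1, tropomyosins that lie along the actin filament, had log2 ratios of 8.34 (8.10 to 8.58) and 3.85 (3.77 to 3.93). Myl9, the regulatory light chain of smooth muscle myosin, was in 214 cells with a median of 10 UMIs and had a log2 ratio of 7.77 (7.54 to 8.01), and Mylk, the kinase that activates it, 4.34 (4.21 to 4.47). The intermediate filament gene Des (7.86) was in 190 cells, and the actin nucleator gene Lmod1 (9.49) was in 134 cells but in 7 of 4003 ECs. Each of these genes was in more than 50% of the mural cells. In ECs they ranged from 7 cells for Lmod1 and 40 for Des to 576 for Mylk and 1443 for Tpm1, and 91.8% of ECs held a UMI of some gene of the list.

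Not every contractile gene was a mark of these cells. Cnn1 (calponin) was in 11 of 227 cells with 29 UMIs in all, and Actg2, the gamma-actin typical of visceral smooth muscle, in 2 cells. Smtn (smoothelin) was at 44.0 CPM in mural cells and 47.5 in ECs, a log2 ratio of -0.11, and Csrp1 and Pcp4l1 reached 1.98 and 1.72.

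Pericyte genes followed the same direction. Of 19 genes with enough UMIs, 16 were at least 4-fold higher and none 4-fold lower, with a median log2 ratio of 6.29. Ndufa4l2, a hypoxia-inducible mitochondrial protein gene, was in 201 cells with a median of 5 UMIs, 1035 CPM against 2.52 and a log2 ratio of 8.68 (8.19 to 9.22). Vtn (vitronectin) was in 95 cells (7.97, 7.20 to 8.86), Rgs4 in 67.4% of cells (7.78), Cox4i2, a lung and hypoxia form of a cytochrome oxidase subunit, in 51.5% (7.94) and Steap4, a metalloreductase gene, in 97 cells (6.32). Genes that ECs also express gave small ratios, among them Ebf1 (1.25, a transcription factor gene), Mcam (1.33, the adhesion molecule CD146) and Gja4 (0.81, the gap junction protein connexin 37). The genes thus separated into those that ECs nearly lack and those that both cell types carry.

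Receptors and channels of vessel tone were the third group. Of 17 vasoactive receptor and regulator genes, 12 were at least 4-fold higher in mural cells (median log2 ratio 6.86), and of 16 channel and calcium handling genes 13 were (6.06). Ednra, the endothelin receptor that drives constriction, was in 89 cells at 110 CPM (91.3 to 130) against 4 UMIs in all ECs (8.53, 7.14 to 10.43). Avpr1a, the vasopressin receptor of vessels, was in 87 cells (8.89), Npy1r, a neuropeptide Y receptor, in 108 (7.90), S1pr3, a sphingosine-1-phosphate receptor, in 132 (7.82) and Agtr1a, the angiotensin II receptor, in 56 (6.70). RNA of these receptors was thus detected in 24.7 to 58.1% of the cells. The thromboxane receptor gene Tbxa2r went the other way, at 13.8 CPM against 37.4 in ECs (-1.44). Kcnk3, a leak potassium channel gene, was in 87 cells (8.53), Cacna1c, the pore of the L-type calcium channel, in 61 (6.27) and P2rx1, an ATP-gated channel gene, in 62 (6.64). Atp2a2, the calcium pump of the sarcoplasmic reticulum, was in 178 cells and had a smaller ratio of 2.28, with 98.9 CPM in ECs.

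Nitric oxide from ECs relaxes mural cells by raising cGMP there, and the genes of this arm were split by cell type. Gucy1a1 and Gucy1b1, the subunits of the soluble guanylate cyclase that senses nitric oxide, were in 198 and 152 cells, with log2 ratios of 6.63 (6.32 to 6.95) and 6.72 (6.23 to 7.24). The kinase gene Prkg1 (4.95) and the phosphodiesterase genes Pde3a (7.72), Pde1a (7.98) and Pde5a (5.00) were higher too, in 80 to 151 cells. Receptors for natriuretic peptides, which make cGMP without nitric oxide, were lower in mural cells, with -2.36 for Npr1 and -3.54 for Npr2. In all 9 of 12 cGMP genes were at least 4-fold higher and 2 were 4-fold lower.

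Genes of the PDGF, Notch and angiopoietin pathways, by which ECs and mural cells signal to each other, lay on either side. Pdgfb was at 12.1 CPM (6.60 to 20.3) in mural cells and 248 CPM (239 to 256) in ECs, a log2 ratio of -4.36, while Pdgfrb was a rule gene and Pdgfa, the other chain, was higher in mural cells (4.83, in 173 cells). The Notch ligand genes Dll4 (-5.16), Jag2 (-4.07) and Dll1 (-2.97) were lower in mural cells and Jag1 (1.20) was not. Of the Notch target genes, Heyl was in 74 mural cells at 106 CPM against 0.518 in ECs (7.68, 6.59 to 9.02), Hey2 was higher (3.51), Nrarp less so (1.86) and Hey1 lower (-1.71). Angpt1, the ligand that activates the Tie2 receptor, was in 35 mural cells (36.2 CPM, 5.03) and Tek, the Tie2 gene, was lower (-4.20), as was Tie1 (-4.94). Pgf, a placental growth factor that binds VEGF receptor 1, was in 55 mural cells (3.51) and Vegfa was near the same level in both (0.36).

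**Figure D2:**
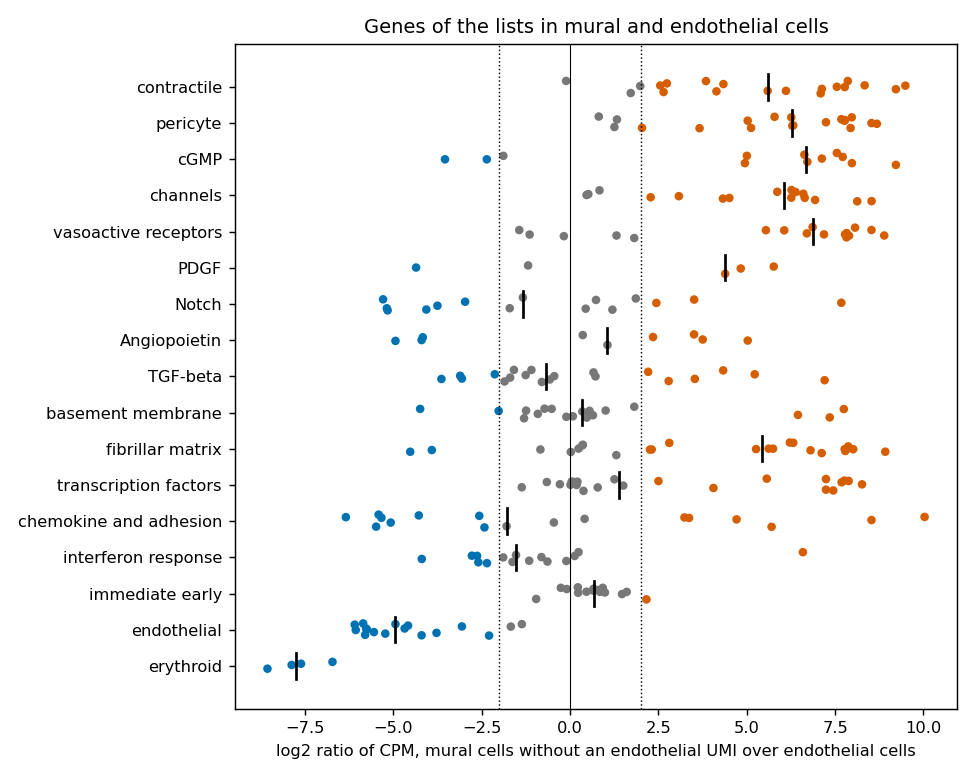
Log2 ratio of CPM in 227 mural cells without an endothelial UMI over 4003 ECs, 1 point per gene with at least 10 CPM in either group, by gene list, with the list median as a black bar and 4-fold differences dotted. Genes at 0 in a group are drawn at the bound set by 3 UMIs. Contractile, pericyte, cGMP, channel and receptor genes lie mostly right of 2 and endothelial and erythroid genes left of -2. The erythroid UMIs of ECs come from 262 of the 4003 cells.

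Matrix genes were described in 2 lists. Of 24 fibrillar and elastic matrix genes, 16 were at least 4-fold higher in mural cells and 2 lower. Col1a1, Col1a2 and Col3a1, the fibrillar collagen chains, were in 61, 114 and 98 of the cells, with log2 ratios of 8.92, 8.01 and 7.87, and the collagen VI chain genes Col6a1, Col6a2 and Col6a3 had ratios of 7.77, 7.84 and 7.12. The fibulin genes Fbln5 (-3.91) and Fbln2 (-4.52) were lower. Of 19 basement membrane genes, 3 were at least 4-fold higher and 2 lower, where 8.76% and 9.2% of all genes were. The other 14 stayed within 4-fold, as did most of all genes, so nothing is read from this count. Col4a1 was at 644 CPM (599 to 692) in mural cells and 925 (909 to 941) in ECs, Nid1 at 163 and 154, and Lamc1 at 110 and 86.8. The integrin genes Itga7 (7.75) and Itga8 (7.35), which bind laminin and RGD proteins, were higher in mural cells.

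Fibroblasts share the collagens, so their other markers were checked. Of the 12 fibroblast genes, the 10 with enough UMIs were at least 4-fold higher than in ECs. Dcn (decorin), a defining fibroblast gene, was however in 5 of 227 cells, and 195 of its 321 UMIs came from 1 cell. Lum was in 2 cells and Pdgfra in 2, and 3 cells held at least 2 of Dcn, Lum, Pdgfra and Col1a1 (1.32%). Part of the Dcn, Lum and Clec3b level thus belongs to a few cells, and Gsn, an actin-severing protein that fibroblasts also express, was in 211 of the cells (6.61).

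Transcription factor genes of the lineage were detected at low counts. Myocd, the co-activator of serum response factor in smooth muscle, was in 45 of 227 cells (45.7 CPM, 34.2 to 59.8) and in 0 of 4003 ECs, where a count of 0 allows up to 3 UMIs, so that the log2 ratio was at least 7.68. Prrx1 (8.26), Ebf2 (7.88) and Foxs1 (7.76) also had large ratios and were in 99 to 127 cells. Srf itself (0.38), Mef2c (-0.29) and Meis2 (0.19) were near the same level in both cell types. Of 22 such genes, 10 were at least 4-fold higher and none lower.

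Of 20 genes of TGF-beta and BMP signaling, 6 were at least 4-fold higher and 4 lower. Tgfb3 (5.22) and Bmp2 (2.79), which are ligands, and Id4 (3.53), which responds to the pathway, were higher, while the receptor genes Acvrl1 (-3.11) and Eng (-3.06), which are typical of ECs, were lower. Id1 (-1.70) and Id3 (0.72), 2 targets in the same family, stayed within 4-fold.

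Cytokine and adhesion genes split by name. Il6 (680 CPM, 3.24), Cxcl1 (1357 CPM, 3.37) and Ccl2 (594 CPM, 5.70) were higher in mural cells, in 87, 99 and 28 cells. Ccl2 rested on few of them: 5 cells held 88.1% of its 345 UMIs in mural cells with Myh11 and 5 held 96.2% of the 344 in those without, 198 of these in 1 cell. Ccl11, the eosinophil attractant eotaxin, was in 28 cells at 155 CPM (133 to 180) and as 2 UMIs in ECs (10.03, 8.16 to 13.09), with up to 80 UMIs in 1 cell. The homing chemokine gene Cxcl12 (-2.57), Cxcl9 (-6.35, -9.39 to -4.49), and the leukocyte adhesion genes Icam2 (-5.34), Selp (-5.49), Vcam1 (-2.42) and Icam1 (-1.80) were lower. Of 17 genes, 6 were at least 4-fold higher and 8 lower.

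Interferon response genes were lower on the whole, 6171 CPM against 16362, a log2 ratio of -1.41 (-1.44 to -1.37). Antigen presentation genes took part in this: B2m, the light chain of MHC class I, was at 644 CPM against 3292 (-2.35), H2-K1 at -2.78 and H2-D1 at -2.60, and Bst2 (tetherin) at -2.63. Isg15 (-0.11), Irf1 (0.13) and Irf8 (0.24) were near the same level. Ifitm1, a membrane protein gene of the same family of responses, was at 214 CPM in mural cells and 2.22 in ECs (6.59, 6.04 to 7.19), against the direction of the list. Salivary genes, which neither cell type should express, were at 1063 CPM against 2518, and their part in the result was not tested. The immediate early genes, which dissociation can induce, were at 23398 CPM in mural cells against 13506, with 1 of their 15 genes at least 4-fold higher. Their part in the cytokine levels was not tested.

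The 25 genes with the largest log2 ratio, among those of at least 100 CPM and 10% of mural cells, were Carmn (10.94, 8.44 to 16.25), Ccl11, Lmod1, Olfr558, Pln, Ntrk2, Col1a1, Avpr1a, Ndufa4l2, Aspn, Nrip2, Kcnk3, Slc11a1, Ednra, Il34, Gm13861, Meg3, Rergl, Rarres2, Tpm2, Prrx1, Hspb2, Daam2, Col1a2 and Pde1a (7.98, 6.97 to 9.21). Carmn, a long noncoding RNA that hosts smooth muscle microRNAs, was in 99 mural cells and as 1 UMI in ECs. Olfr558, an olfactory receptor gene, was in 154 of 227 mural cells with 0 to 12 UMIs (364 CPM, 330 to 400) and in 8 of 4003 ECs (9.26, 8.27 to 10.48). Ntrk2, the receptor for brain-derived neurotrophic factor, was in 148 cells (8.98), and Aspn, which encodes the small leucine-rich proteoglycan asporin, in 193 (8.67). Il34, a ligand of the CSF1 receptor, was in 81 of the cells or 35.7% (8.53), and Rarres2, the precursor of chemerin, in 202 (8.37).

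The 15 genes lowest in mural cells were endothelial. They were Aplnr (-7.72, -13.02 to -5.24), Fam167b, Cmtm8, Fmo2, Gimap5, Myct1, Arhgef15, Clec1a, Mmrn2, Esm1, Tnfsf10, Col13a1, Cxcl9, Rasgrp3 and Exoc3l2 (-6.19, -9.24 to -4.34), with 1 to 5 UMIs each in all 227 cells together. Of the 17 genes of the endothelial list, 15 were at least 4-fold lower. Kdr, VEGF receptor 2, was in 17 mural cells at 17.2 CPM against 1180 in ECs (-6.10, -6.81 to -5.47), Flt1, VEGF receptor 1, was at -5.77 and Plvap, the protein of fenestral diaphragms, at -6.07. Fabp4, a fatty acid binding protein of capillary ECs and adipocytes, stood apart: it was in 224 of the 227 mural cells, at 7878 CPM against 20301 (-1.37), as it was in 98.4% of ECs, so its share in mural cells was at the level of the cells it is typical of.

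Markers of further cell types were close to absent. The luminal epithelial list summed to 121 CPM in mural cells and 157 in ECs, and the adipocyte list to 74.2 and 116. A keratin of Krt5, Krt14 or Krt17, which mark the contractile myoepithelial cells of the gland, was in 6 of 227 cells (2.64%, 0.976 to 5.66%) and in 81 of 4003 ECs (2.02%). The myoepithelial list summed to 33.6 CPM against 41.5 in ECs, with Oxtr at 0, the immune list to 8.62 CPM, with Cd3e at 0, and the glia list to 5.17 CPM. Of the 227 cells, 0 held 2 or more genes of the glia, skeletal muscle or lymphatic list, where 3 counts of 227, the limit taken for a count of 0, are 1.32% (Clopper-Pearson bound 1.61%), and these last 2 lists summed to 6.90 and 17.2 CPM. Of the genes the study followed, Dnmt1 was in 18 mural cells at 21.6 CPM against 30.1 in ECs, and none of 4 such genes with enough UMIs passed 4-fold. Erythroid genes were at 8.62 CPM in mural cells and 2825 in ECs. Bpifa2, a salivary gene, was in 83.7% of mural cells and 82.4% of ECs, a share that no cell type here should have of its own.

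For most genes of the endothelial, contractile and pericyte lists, mural cells with a Cdh5 or Pecam1 UMI had levels between those of the other groups. Of the 17 endothelial genes, all 17 had a level between those of ECs and of mural cells without such a UMI, and the list stood at 21392 CPM, which is 60.5% of its level in ECs, against 8844 CPM in the mural cells without. Its log2 ratio between the groups of mural cells was 1.27 (1.24 to 1.31), and 13 of the 17 genes were at least 4-fold higher, where 432 of 9076 genes in all were (4.76%) and 60 were lower (0.661%). The summed list is mostly Fabp4: the other 16 genes stood at 966 CPM in mural cells without such a UMI. The median log2 ratio over the 17 genes was 3.78. Contractile genes were at 49.3% of the level in mural cells without an endothelial UMI, with 19 of 20 genes between the groups, and pericyte genes at 67.0%, with 16 of 20. The share of all genes that lie between was not counted, so these counts describe the lists only. Kdr stood at 474 CPM in 124 of the 205 cells and Flt1 at 971 CPM in 160, against 17.2 and 37.1 CPM without, while Steap4 stood at 319 CPM in both. Since Cdh5 and Pecam1 chose these cells, the direction of endothelial genes was fixed by the choice.

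The 205 cells were not alike. The number of Cdh5 and Pecam1 UMIs together was 1 in 48 cells, 2 to 4 in 42 and 5 or more in 115, with a median of 6, as in ECs, and a highest value of 43. For 16 endothelial genes without Fabp4, cells with 1 such UMI had a median of 13.8 UMIs per 10000 of the cell (quartiles 7.26 to 25.6), near the 8.17 of mural cells with none. Cells with 5 or more had 93.4 (63.8 to 118), against 153 (124 to 186) in ECs. The contractile list moved the other way, with medians of 213, 159, 71.7 and 40.7 per 10000 from no endothelial UMI to 5 or more. At least 5 of the 16 genes were in 14 of the 48 cells with 1 UMI and in all 115 with 5 or more, against 23 of the 227 with none. Cells with 5 or more were also the deepest, with a median of 8047 UMIs, against 4820 for mural cells with none and 2908 for ECs, and the part that doublets or free RNA have in these values was not tested.

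**Figure D3:**
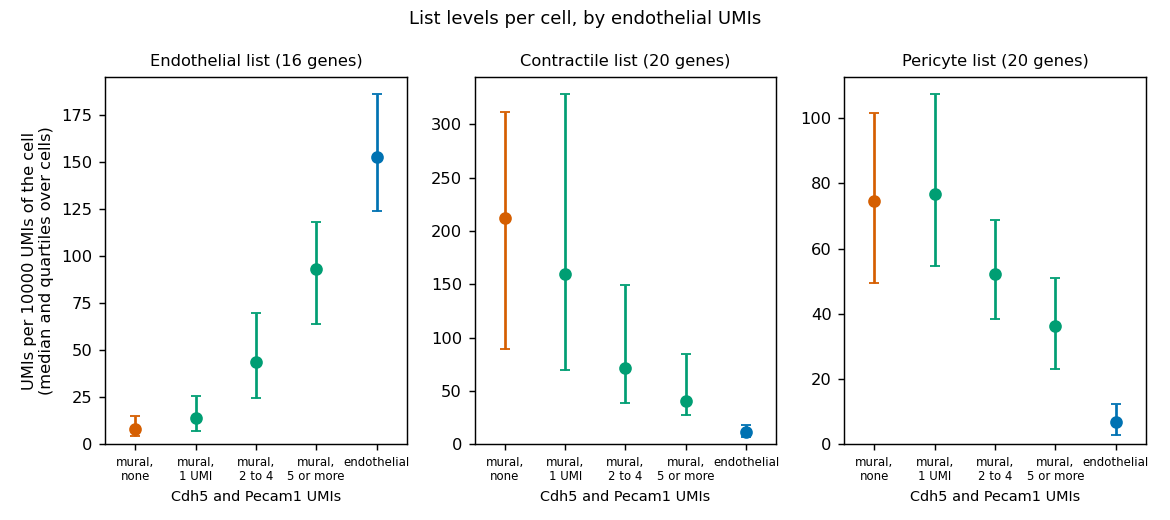
UMIs of 3 gene lists per 10000 UMIs of the cell (median and quartiles over cells) in 227 mural cells without a Cdh5 or Pecam1 UMI, in 48, 42 and 115 mural cells with 1, 2 to 4, and 5 or more, and in 4003 ECs. Endothelial genes climb from 8.17 to 93.4 while contractile genes drop from 213 to 40.7, and cells with 1 UMI lie close to those with none.

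Within the 227 cells, the contractile genes followed Myh11. Myh11 was detected in 167 cells (median 5555 UMIs) and not in 60 (median 3164.5 UMIs), and the latter met the rule through the other 8 genes. The contractile list, without Acta2 and Myh11, stood at 27430 CPM in the former and 6239 in the latter, a log2 ratio of 2.14 (2.06 to 2.21), and all 19 genes with enough UMIs were above 0. Of these, 8 were at least 4-fold higher, as were 237 of 8903 genes in all (2.66%), while 466 genes were lower (5.23%). The median of all genes was -0.16, so that most genes lay below 0. Per cell, the contractile list had a median of 266 UMIs per 10000 (quartiles 174 to 343) in Myh11-positive cells and 57.5 (47.7 to 82.9) in Myh11-negative ones, so that the middle 50% of the groups did not overlap. Acta2, a rule gene from which no difference is read, was at 11388 CPM in 162 of the 167 cells. It was at 602 CPM in 27 of the 60, a log2 ratio of 4.24 (4.01 to 4.48). Outside the rule, Tagln had a log2 ratio of 3.67 (3.42 to 3.93), Tpm2 of 2.77 and Myl9 of 1.90, while Des (0.59) and Synpo2 (0.23) were near the same level. Pln, which holds the sarcoplasmic calcium pump in check, was in 58 of 167 and in 0 of 60 cells, a log2 ratio of at least 4.24.

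The pericyte list as a whole differed little, 7266 CPM in Myh11-positive and 8593 in Myh11-negative cells, a log2 ratio of -0.24 (-0.31 to -0.17), but its genes split. The sign of the sum was not stable: it was 0.18 with a limit of 5% mitochondrial UMIs, and 0.34 (0.27 to 0.41) in the mural cells with an endothelial UMI. Steap4 (-2.41, -2.72 to -2.10), Art3 (-2.14), Cygb (-1.76), a globin gene of stellate cells and pericytes, and Postn (-1.63), the matrix protein periostin, were lower in Myh11-positive cells, and Ndufa4l2 (0.26), Rgs4 (0.59) and Foxs1 (0.93) were not. The rule genes are given without reading a difference from them, because Myh11-negative cells had to qualify through the other 8. Abcc9 was in 30 of 167 and 52 of 60 cells (-2.65, -3.06 to -2.26) and Kcnj8 in 28 and 40 (-2.12, -2.48 to -1.76). Rgs5 was in 115 and 50 cells, at 2318 and 4303 CPM (-0.89), and Notch3 in 157 and 46, at 741 and 474 CPM (0.64). Across the 227 cells, the contractile and pericyte lists per UMI had a Spearman rho of -0.31; total UMIs had a rho of 0.29 with the former and -0.28 with the latter, and all 3 share the same library and the same denominators.

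**Figure D4:**
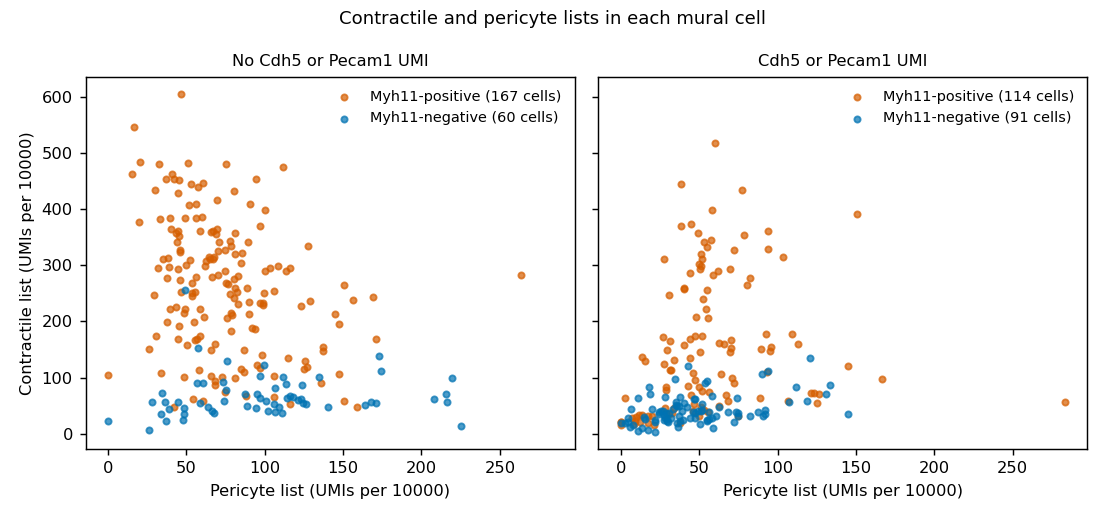
Contractile against pericyte list, each in UMIs per 10000 UMIs of the cell, 1 point per mural cell, without (left) and with (right) a Cdh5 or Pecam1 UMI and colored by Myh11. Most Myh11-negative cells lie below 100 on the contractile axis in both panels, where the Myh11-positive cells of the left panel reach 604.

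Of the 205 cells with an endothelial UMI, 114 had Myh11 and 91 did not, and there the contractile list had a log2 ratio of 1.96 (1.90 to 2.02).

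The 15 genes with the largest ratio in Myh11-positive cells were Sorbs2 (6.25, 3.76 to 11.56), Crispld2 (5.69), Fbxl22, Rgs7bp, 2900026A02Rik, Tesc, Map3k7cl, Nrip2, Pln, Rergl, S100a4, Fgf1, Mustn1, Lcmt2 and Tagln. Sorbs2, an adaptor protein of the actin cytoskeleton, was in 62.3% of Myh11-positive cells and as 1 UMI in the others, and Crispld2, a secreted protein gene, was in 90 of 167 cells with up to 41 UMIs and in 4 of 60 with at most 1. In the 205 cells with an endothelial UMI, which the ranking did not use, all 15 had the same direction. Their log2 ratios there were 1.31 to 6.28 (median 3.66). These cells come from the same library and are split by the same gene, so they are not a replicate. The median of all 9188 genes in that contrast was -0.10, so that most genes lay below 0, and nothing further is read from these directions. The 15 lowest were Cyp26b1 (-6.88, -9.95 to -4.97), Cfd, Treml1, 1810011H11Rik, Ednrb, Cd300lg, Ifi207, Ifit1, Enpp2, Stmn1, Mgp, Nr1h3, Gm14964, H2-M9 and Rsad2 (-3.04). Of these, 13 kept their direction in the cells with an endothelial UMI, where the 15 ran from -5.29 to 1.27 (median -1.63).

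Some of these rest on few cells. Cyp26b1, a retinoic acid hydroxylase gene, was in 12 of 60 Myh11-negative cells and in 2 of 167. Ednrb, the endothelin receptor that also signals relaxation in ECs, was in 26 of 60 cells (1271 CPM) and in 29 of 167 (88.0 CPM), a log2 ratio of -3.85 (-4.22 to -3.49). Agtr1a was in 30 and 26 cells (-2.79, -3.34 to -2.26), so that both receptor genes were higher without Myh11, while Ednra (0.03) was at the same level and S1pr3 (1.75) higher with it. Mgp, an inhibitor of calcification, had 71.3% of its 411 UMIs in Myh11-negative cells from 5 cells, and Ifit1 84.9% of 73. For Cfd it was 92.9% of 42 and for Treml1 78.8% of 33. Cfd and Treml1 had 0 UMIs in Myh11-positive cells, so their ratios are bounds. Top2a, a gene of dividing cells, had 28 of its 29 UMIs of Myh11-negative cells in 1 cell, and was in 5 of all 227 cells.

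Fibrillar matrix and interferon genes were mostly lower in Myh11-positive cells. The fibrillar matrix list had a log2 ratio of -1.22 (-1.30 to -1.14), with 19 of 24 genes below 0, among them Col6a1 (-2.02) and Col1a1 (-1.38). Most of all 8903 genes were also below 0 in this contrast (median -0.16), which is the background for counts below 0. Sparc, a collagen-binding matrix protein, was at 2295 CPM in Myh11-positive and 6020 in Myh11-negative cells (-1.39, -1.49 to -1.29). The interferon list was at 5110 and 10012 CPM (-0.97, -1.04 to -0.90), with Irf7 (-2.69), Irf8 (-2.71) and Bst2 (-2.09) among 5 of 14 genes that were at least 4-fold lower. The endothelial list moved with them, at 7114 against 15107 CPM, of which Fabp4 was 6289 and 13633, and 13 of 15 of its genes were below 0. Its part in these values was not tested. In the mural cells with an endothelial UMI the same ratios were closer to 0, with -0.42 for the fibrillar and -0.12 for the interferon list. Of 16 channel genes, 3 were at least 4-fold higher in Myh11-positive cells and none lower, while 17 receptor genes split into 2 higher and 2 lower.

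**Figure D5:**
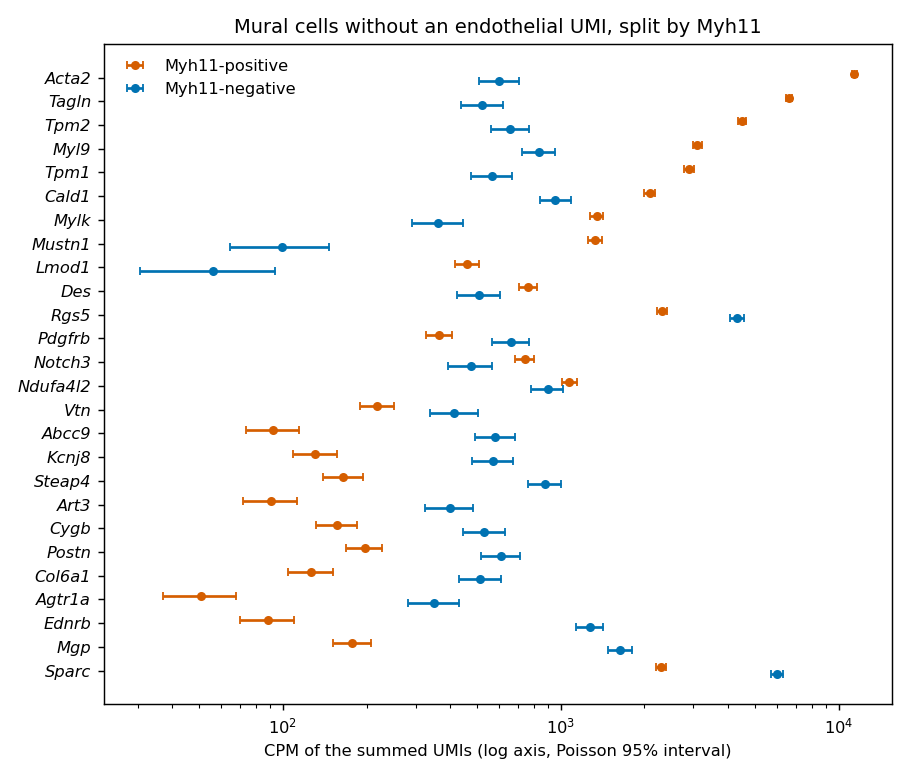
CPM of summed UMIs (log axis, bars are Poisson 95% intervals) of 26 genes in 167 Myh11-positive and 60 Myh11-negative mural cells without an endothelial UMI. Contractile genes from Tagln to Lmod1 lie to the right in Myh11-positive cells and Steap4, Ednrb, Mgp and Sparc in Myh11-negative cells, while Des is near the same level in both. Acta2, Rgs5, Pdgfrb, Notch3, Abcc9 and Kcnj8 are rule genes, from which no difference is read.

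Many contractile genes are known targets of serum response factor, which binds the CArG box: CC, then 6 bases that are each A or T, then GG. The motif reads alike on both strands. RefSeq promoter windows of GRCm38.p6, from 250 bases before to 50 after each start site, held an exact match in 1.63% of 32851 windows. This share is per window, for 27025 gene symbols, whereas a listed gene counts when any of its windows matches. The share per gene was not computed, so no difference is read from the counts below. Windows were present for 18 of the 20 contractile genes, and 3 of these genes held a match (Myl9, Filip1l and Ldb3), as did 0 of 13 pericyte and 0 of 10 endothelial genes. With 1 of the 6 middle bases free to be C or G, 9.98% of all windows matched, as did those of 4 of 18 contractile, 1 of 13 pericyte, 4 of 10 endothelial (Egfl7, Eng, Kdr and Tek) and 1 of 6 rule genes (Acta2). Of the 15 genes highest in Myh11-positive cells, 11 had a window and 2 of these, Rergl and Fbxl22, held an exact match. Among the 25 highest against ECs it was 2 of 16 (Meg3 and Rergl). In the lowest sets it was 0 of 11 against ECs and 0 of 9 in Myh11-positive cells. The sequences of Myl9 and Filip1l, 100 bases each, are shown because both genes were higher in Myh11-positive cells (1.90 and 0.79), with the matches in capitals, the second of Myl9 being the form with 1 free base. The matches of Myl9 start 161 and 99 bases before the start site (chr2:156775289-156775388, plus strand) and that of Filip1l 62 bases before it (chr16:57549135-57549234, plus strand).
Myl9: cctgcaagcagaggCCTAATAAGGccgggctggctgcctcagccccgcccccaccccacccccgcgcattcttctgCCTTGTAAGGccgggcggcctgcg
Filip1l: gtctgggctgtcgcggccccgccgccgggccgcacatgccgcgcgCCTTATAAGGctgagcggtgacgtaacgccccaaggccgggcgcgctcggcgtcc
A match describes these letters and is not a measured binding site.

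The tumor library was read only for cells that meet the same rule. They were 17 of 464 eligible cells (3.66%, 2.15 to 5.80%), 8 without and 9 with an endothelial UMI, with a median of 97956 UMIs. Acta2 was in 16 and Pdgfrb in 15 of them, but Rgs5 was in 6 at 3.77 CPM, no cell held both Rgs5 and Notch3, and Myh11, Higd1b, Tagln and Vtn had a UMI in 0, where 3 counts of 17 are 17.6% (Clopper-Pearson bound 19.5%). Rhox5 (794 CPM, in 16 cells, named after its values were seen) and the keratin gene Krt8 (in 14 cells), which are not mural genes, were present. Their defining markers thus go against the name, and they were not compared with the mural cells of the normal gland. Of all barcodes, 3 were the same in both libraries.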

How the data were processed

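CD45-/CD31+ cells sorted from pooled normal mammary glands were profiled in 1 droplet library. The authors mapped reads with Cell Ranger to mm10 (per the submitters' processing notes, which also name Seurat; versions are not given in the sources used here) and deposited whole-number UMI counts per gene and barcode, without normalization. The library holds 17641 genes and 40914092 UMIs, 500 to 327449 per barcode (median 2973).

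Cells were chosen by the rule given above. No cell was removed as a doublet. UMIs were summed over cells and divided by the total (CPM). With 1 library per condition no test was run. Sums have Poisson, shares Clopper-Pearson and ratios exact conditional binomial intervals (95%). A sum of 0 took a floor of 3 UMIs over the group. Genes with at least 10 CPM in either group, rule genes, Cdh5 and Pecam1 left out, entered counts of 4-fold differences. Named genes are the rule genes, members of 27 other gene lists (by level or ratio) and the genes of 4 rankings. These are the 25 highest and 15 lowest ratios to ECs and the 15 highest and lowest of Myh11-positive over Myh11-negative cells. Ranked genes had at least 100 CPM in the higher group and UMIs in at least 10% of its cells. Mitochondrial and ribosomal genes were left out of the rankings. The members and lists were chosen with earlier results of these data known. Of the listed genes, 6 were not in the table. To compare at equal depth, cells were thinned to 2000 UMIs and shallower ones left out. Gene positions are from GENCODE M21. The scripts used scipy 1.17.1, numpy 2.4.6, pandas 2.3.3 and matplotlib 3.10.9 under Python 3.11.15. Only the log2 ratio and its interval were tested on simulated counts. Alternatives covered the limits on cells, rule genes and CPM, depth, the split and the mean over cells.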

Additional observations from a re-analysis of the deposited data

How the results depend on the processing

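The share of mural cells without an endothelial UMI was 1.33% under a limit of 5% mitochondrial UMIs and 5.03% after thinning, and that with one 1.81 and 2.67%, 3.03% with at least 4 rule genes and 5.65% with at least 2. The share with Myh11 or Cspg4 was 65.7% with at least 2 rule genes and 70.6% after thinning. Without a minimum CPM, 2054 genes were at least 4-fold higher. The log2 ratio of the summed endothelial list, which is mostly Fabp4, between the groups of mural cells was 1.74 (5% limit), 1.17 (4 genes), 1.51 (2 genes), 1.20 (6 rule UMIs), 1.11 (thinned), 1.12 (mean over cells) and 1.18 (groups set at full depth and UMIs then thinned, an alternative chosen after seeing the data). For Myh11-positive over Myh11-negative cells, the contractile list was at 1.78 (thinned), 1.97 (mean) and 1.98 (cells split instead by whether Acta2 and Myh11 or 5 pericyte genes of the rule had more UMIs). The pericyte list turned to 0.18 under the 5% limit, and was at -0.44 (thinned), -0.42 (mean), -0.40 (that split) and -0.40 (full-depth groups). The cause was not tested. All other alternatives run kept these values within their counting interval, and the count of genes within 1.5 times. No paired analysis was possible because each condition has 1 library and no test was run. Depth limits the shares of genes at 1 or 2 UMIs per cell.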
